A study of Mus musculus with 6 samples.

Results

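The 9 genes described here, Egf, Umod, Slc12a1, Kcnj1, Bsnd, Slc12a3, Wnk4, Trpm6 and Pvalb, mark the thick ascending limb and the distal convoluted tubule of the kidney. They were taken by name from the gene column of the scanner files, which gave 11 probes among 41174, and all 9 genes were among the 19611 genes tested. Kidney RNA of 6 samples labelled as male mice was hybridised to single-colour Agilent arrays. Injured wild-type mice, whose kidneys went through ischaemia/reperfusion (blood flow stopped and then restored), gave 2 arrays (wild-type injured 1 and 2). Mice with Gpr97 deficiency (Gpr97 is an earlier symbol of Adgrg3, an adhesion receptor gene) gave 1 array after the same injury (Gpr97-deficient injured). Wild-type sham-operated mice gave 2 arrays and Gpr97-deficient sham-operated mice gave 1. Strain, age, the way in which Gpr97 was disrupted, how long ischaemia lasted and when kidneys were collected are not given here. Whether arrays of the same group are different mice is not stated either, and p-values therefore cover only the spread between these samples, part of which may be technical.

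The thick ascending limb reabsorbs sodium chloride without water and so makes the interstitium concentrated. Its apical cotransporter NKCC2 (Slc12a1) takes up sodium, potassium and chloride, the channel ROMK (Kcnj1) returns potassium to the lumen, and barttin (Bsnd) is the subunit that the basolateral chloride channels need. The distal convoluted tubule reabsorbs sodium chloride through NCC (Slc12a3), whose activity the kinase WNK4 regulates, and magnesium through the channel TRPM6. Both segments make the precursor of epidermal growth factor (Egf), and uromodulin (Umod), made mainly by the thick limb, is the most abundant protein of normal urine.

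Signals are log2 values from which the 75th percentile of the same array was subtracted, so that 0 is the level of a moderately bright probe and 1 unit is a 2-fold difference. The arrays had 63.0% to 71.0% of their probes well above background. They lay on 2 slides, each with its own scanner: wild-type injured 2 and wild-type sham 1 on slide 1 and the other 4 on slide 2. Adgrg3 stood at -5.76 and -5.38 on the Gpr97-deficient injured and sham arrays, against 0.02 to 1.18 on the 4 wild-type arrays. One array went against the label male: wild-type injured 1 had Xist, the RNA of the inactive X in females, at 4.05, and none of 4 Y-linked genes well above background. On the other 5 arrays Xist was at -5.46 or lower and all 4 Y-linked genes were well above background. Results are therefore given with and without that array. Umod, Slc34a1, Aqp2 and Slc12a3, taken to mark whole kidney, were well above background on all 6 arrays.

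The 60-base probes decide what was measured, and the first 30 bases of those on which the results turn are shown in 5′ to 3′ direction, as the scanner files give them.
Egf (chr3:129380826-129380885, minus strand): ataaatgatgtgatctacatagaagtctta
Umod (chr7:126606529-126606588, minus strand): aaacaagttggcatctttcagtgctgttct
Slc12a1, bright probe (chr2:125055224-125055283, plus strand): ctgctagctggaggtatattaggtaggtga
Slc12a1, dim probe (chr2:125021044-125021103, plus strand): ggagaccaactaaaagtgataaatattctt
Pvalb (chr15:78021647-78021706, minus strand): gtgatggatcgtccatcttaaagatacaga
Coordinates are in mm9, per the file headers, and cover the whole probe. The annotation of exons and untranslated regions in that build was not used here. The Egf probe was spotted 10 times on each array, and its spots agreed to an SD of 0.03 to 0.06. The remaining probes had 1 spot per array. GC content lay between 35.0% and 55.0% over the 11 probes. None of the 11 was marked saturated on any array. Slc12a1 and Trpm6 had 2 probes each, of which the brighter stands for the gene. The dim Trpm6 probe was not well above background on any array and gives no value.

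Of the 9 genes, Egf was furthest below sham among those well above background on every array. Its signal was 5.26 on wild-type injured 1, 1.87 on wild-type injured 2 and 4.05 on Gpr97-deficient injured, against 6.32 and 6.56 on the wild-type sham arrays and 6.48 on the Gpr97-deficient sham array. The 3 sham arrays lay within 0.25 of each other, the 3 injured arrays were spread over 3.39, and the groups did not overlap. The mean was 3.73 ± 1.72 in injured and 6.45 ± 0.13 in sham kidneys (SD, n = 3 each), a log2 change of -2.73 (SE 0.89), or 6.62-fold lower. In limma's fit of injury over both genotypes this had an unadjusted p of 0.0278 and a Benjamini-Hochberg adjusted p of 0.361 over all genes, so it did not pass the threshold of 0.05. The same change was -3.65 (SE 0.56, adjusted p = 0.164) without wild-type injured 1 and -1.72 (SE 0.36, adjusted p = 0.465) without wild-type injured 2. In whole tissue, fewer cells of a type and less RNA per cell cannot be told apart, here or in the results that follow.

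Umod did not follow Egf. It stood at 8.60, 7.97 and 8.40 on wild-type injured 1, wild-type injured 2 and Gpr97-deficient injured, against 8.12 and 8.17 on the wild-type sham arrays and 8.28 on the Gpr97-deficient sham array. Injured arrays lay on both sides of the sham arrays, at 8.32 ± 0.32 in injured and 8.19 ± 0.08 in sham kidneys (SD, n = 3 each). The change was 0.13 (SE 0.21, limma adjusted p = 0.854). It kept its size below 0.31 in either direction when any single array was left out, and its sign turned without wild-type injured 1 (-0.05). Its probe ranked between 12 and 30 in brightness among the 41174 probes of an array and was not marked saturated.

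**Figure D1:**
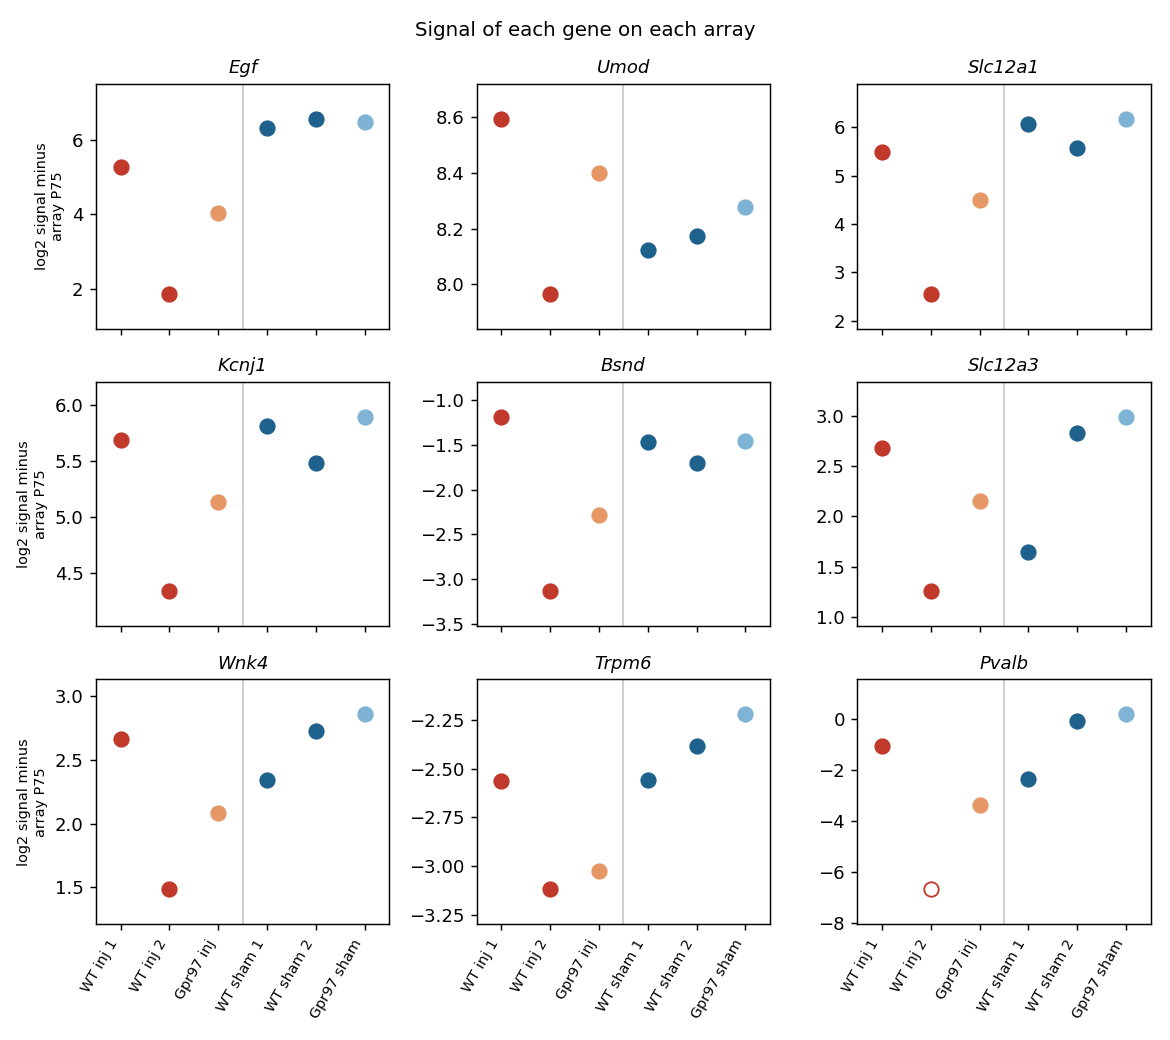
Log2 signal minus the array's 75th percentile (y axis, a separate range for each gene) on each of the 6 arrays (x axis: injured left of the line, sham right of it; WT, wild type; Gpr97, Gpr97-deficient; inj, injured). Each point is 1 array, and the open circle for Pvalb is a signal not well above background; wild-type injured 2 is the lowest array for all 9 genes, while Umod differs least between groups.

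The transport genes of the thick limb were next. Slc12a1 had 5.50, 2.56 and 4.49 on wild-type injured 1, wild-type injured 2 and Gpr97-deficient injured, against 6.06 and 5.56 on the wild-type sham arrays and 6.18 on the Gpr97-deficient sham array. The groups did not overlap, but wild-type injured 1 missed the lowest sham array by only 0.07. The change was -1.75 (SE 0.78, limma unadjusted p = 0.0742, adjusted p = 0.448). Its dim probe, further upstream in the gene, read -3.50 on wild-type injured 1 and -3.74 on Gpr97-deficient injured, against -3.13 and -3.09 on the wild-type sham arrays and -3.56 on the Gpr97-deficient sham array. On wild-type injured 2 that probe was not well above background. It read -4.42 there, 2.44-fold below wild-type sham 1 of the same slide, where the bright probe was 11.3-fold lower. Both probes were thus lower on every injured array than on the sham array of the same genotype and slide, by unequal amounts.

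Kcnj1 showed the same order of the injured arrays over a smaller range. It had 5.69, 4.34 and 5.13 on wild-type injured 1, wild-type injured 2 and Gpr97-deficient injured, against 5.81 and 5.48 on the wild-type sham arrays and 5.89 on the Gpr97-deficient sham array. Wild-type injured 1 lay among the sham arrays and the other 2 injured arrays below them, and the change was -0.68 (SE 0.38, limma adjusted p = 0.537). Bsnd, the dimmer signal of a chloride channel subunit, had -1.18, -3.14 and -2.28 on wild-type injured 1, wild-type injured 2 and Gpr97-deficient injured, against -1.47 and -1.71 on the wild-type sham arrays and -1.46 on the Gpr97-deficient sham array. Here wild-type injured 1 was above every sham array and the other 2 injured arrays below all of them. The change was -0.66 (SE 0.53, limma adjusted p = 0.656) and turned to 0.14 under normexp, another background correction, where the median change over all genes was 0.19. Across the 6 arrays Slc12a1 and Kcnj1 followed each other closely (r = 0.99) and Bsnd followed Slc12a1 (r = 0.95), whereas Umod had r = 0.42 with Slc12a1; these are descriptions over 6 arrays that share slides and groups.

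For Slc12a3 the wild-type sham arrays themselves disagreed. Slc12a3 had 2.68, 1.25 and 2.15 on wild-type injured 1, wild-type injured 2 and Gpr97-deficient injured, against 1.65 and 2.83 on the wild-type sham arrays and 2.99 on the Gpr97-deficient sham array. The 2 wild-type sham arrays differed by 1.19 (slide 1 lower), more than the injury change of -0.46 (SE 0.51, limma adjusted p = 0.762). Wnk4 had 2.67, 1.48 and 2.08 on the same 3 injured arrays, against 2.35 and 2.73 on the wild-type sham arrays and 2.86 on the Gpr97-deficient sham array. Its groups overlapped through wild-type injured 1, and the change was -0.57 (SE 0.36, limma adjusted p = 0.568). The Wnk4 probe covers 167 positions of mm9 (chr11:101138198-101138364, plus strand) although it has 60 bases, so it is split in the genome.

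Trpm6 and Pvalb were the other 2 genes of the distal convoluted tubule. Trpm6 had -2.56, -3.12 and -3.03 on wild-type injured 1, wild-type injured 2 and Gpr97-deficient injured, against -2.56 and -2.39 on the wild-type sham arrays and -2.22 on the Gpr97-deficient sham array. The groups did not overlap, although wild-type injured 1 and wild-type sham 1 were equal at this rounding, and the change was -0.51 (SE 0.23, limma unadjusted p = 0.0708, adjusted p = 0.443), which turned to 0.26 with normexp. Pvalb, which encodes the calcium-binding protein parvalbumin of the early distal convoluted tubule and also of fast skeletal muscle, had -1.05 on wild-type injured 1 and -3.36 on Gpr97-deficient injured, against -2.34 and -0.06 on the wild-type sham arrays and 0.20 on the Gpr97-deficient sham array. On wild-type injured 2 its spot read -6.69 and was not well above background. With that spot set to the lowest signal well above background on its array, Pvalb was 4.41-fold below wild-type sham 1 of the same slide. The fitted change of -2.97 (SE 1.58, limma adjusted p = 0.514) includes the spot below background and had the widest SE of the 9. For skeletal muscle, 3 of 5 marker genes were tested (Acta1, Mylpf and Tnnt3; Ckm and Myh4 were not well above background on at least 2 arrays), with a summed level of 0.299 to 0.359 times the 75th percentile on the injured arrays and 0.192 to 0.305 times on the sham arrays. Their part in the Pvalb signal was not tested.

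Over the 9 genes, 0 passed the adjusted threshold for injury over both genotypes, as did 0% of all 19611 genes. At an unadjusted p under 0.05, 2411 genes were counted, and 1 of the 9 (Egf) was among those lower in injured kidneys, against 6.72% of all genes. With slide as a block in limma's fit, 3 of the 9 were below that p (Egf at 0.0131, Pvalb at 0.0136 and Trpm6 at 0.0438), all lower, against 10.2% of all genes lower at that p, and 0 of the 9 passed the adjusted threshold. With all arrays and no block, their change was lower in 8 of 9, against 56.8% of all genes, with a median of -0.66, against -0.06 over all genes. With normexp it was lower in 7 of 9, with a median of -0.72, against 0.19 over all genes. The share of all genes lower with normexp was not counted. In the signals given above, all 3 injured arrays lay below all 3 sham arrays for 3 of 9 (Egf, Slc12a1 and Trpm6), against 13.1% of all genes. In wild type alone the median change of the 9 was -0.58 (all genes -0.05), and in Gpr97 deficiency, with 1 array per group, it was -0.82 (all genes -0.06). Neither comparison had a gene past the adjusted threshold (0% of 19611 and 0% of 19610), with 1256 and 537 genes at an unadjusted p under 0.05 and 0 of the 9 among them.

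The injured arrays differed from each other in the same order for every gene of the group. Wild-type injured 2 was lowest, Gpr97-deficient injured intermediate and wild-type injured 1 highest in 9 of 9, an order held by 25.7% of all genes. Wild-type injured 2 was below all 3 sham arrays for 9 of 9 (37.3% of all genes) and Gpr97-deficient injured for 7 of 9 (34.4%). Wild-type injured 1 was below them for 3 of 9 (28.3%), inside the sham range for 4 of 9 (47.9%) and above it for 2 of 9, Umod and Bsnd (23.9%). The 2 wild-type injured arrays differed by over 2-fold for 7 of the 9, against 17.5% of all genes, with a median difference of 1.43, and the 2 wild-type sham arrays for 2 of the 9, against 14.6% of all genes.

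Each slide held an injured and a sham array of wild type, and slide 2 also held both Gpr97-deficient arrays, which gives 3 differences within a slide and genotype. The injured array in the wild-type pair of slide 2 is wild-type injured 1, which went against the label male, unlike its sham array. That pair may therefore also hold a difference of sex, and so do the counts over all 3 pairs. Egf was lower in each pair: by 21.8-fold in the wild-type pair of slide 1, by 2.47-fold in the wild-type pair of slide 2 and by 5.41-fold in the Gpr97-deficient pair. It was the 1 gene of 9 at least 2-fold lower in all 3 pairs, as were 0.775% of all genes. Slc12a1 was 11.3-fold lower in the wild-type pair of slide 1 and 3.23-fold lower in the Gpr97-deficient pair, but only 1.05-fold lower in the wild-type pair of slide 2. Pvalb was 1.99-fold lower in the wild-type pair of slide 2 and 11.7-fold lower in the Gpr97-deficient pair. Slc12a3, Wnk4 and Trpm6 were lower in all 3 pairs too, by at most 1.82-fold in any of them, so that 6 of 9 were lower throughout, against 26.5% of all genes. Umod was lower in the slide 1 pair and higher in both slide 2 pairs, while Kcnj1 and Bsnd were higher in the wild-type pair of slide 2 alone. The median over the 9 was -1.47 in the wild-type pair of slide 1, -0.07 in the wild-type pair of slide 2 and -0.82 in the Gpr97-deficient pair, against medians of all genes of -0.11, 0.00 and -0.06 in the same order.

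**Figure D2:**
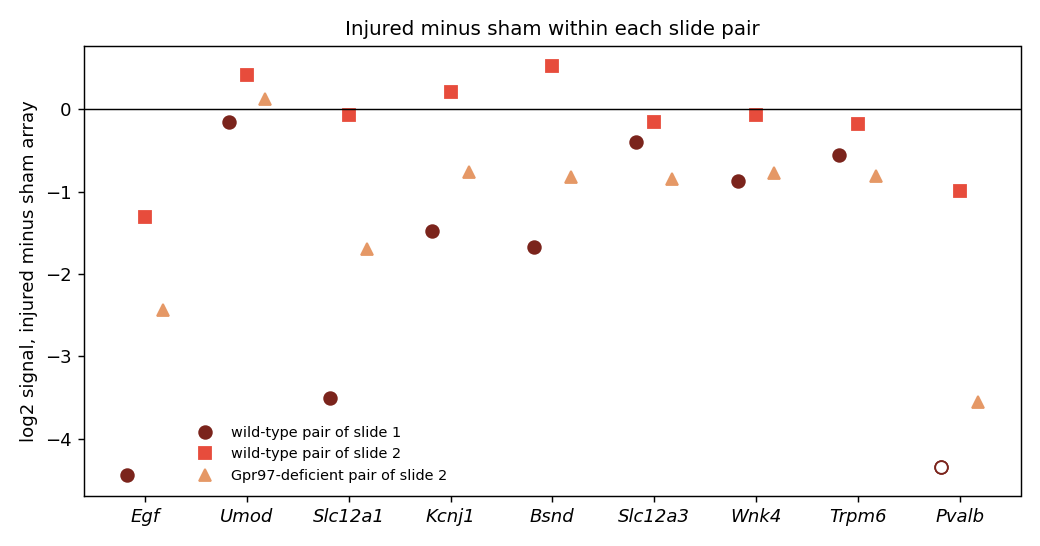
Difference in log2 signal, injured minus sham array (y axis), for the 9 genes (x axis) in the 3 pairs of arrays that share a slide and a genotype; each point is 1 pair, with no error, and the open circle marks the Pvalb spot not well above background. Egf lies below -1 in all 3 pairs, and the wild-type pair of slide 2 lies near 0 for most other genes. The injured array of that pair is wild-type injured 1, which went against the label male.

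Without wild-type injured 1, the array that went against its label, the median injury change of the 9 was -1.07, all 9 were lower and 7 of 9 had an unadjusted p under 0.05, against 10.6% of all genes lower at that p. The exceptions were Umod, at -0.05, and Slc12a3, at -0.93 (limma adjusted p = 0.365). Slc12a1 was then at -2.58 (SE 0.45, limma adjusted p = 0.167), Kcnj1 at -1.07 (SE 0.24), Bsnd at -1.24 (SE 0.25) and Pvalb at -4.66 (SE 0.90). None of them passed the adjusted threshold. Without wild-type injured 2 instead, the median was -0.30, and Slc12a1 stood at -0.90 (SE 0.41), Bsnd at -0.12 (SE 0.35) and Slc12a3 at -0.11 (SE 0.53). Of the 9, only Egf then had an unadjusted p under 0.05 in limma's fit (0.0095), against 4.42% of all genes lower at that p.

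**Figure D3:**
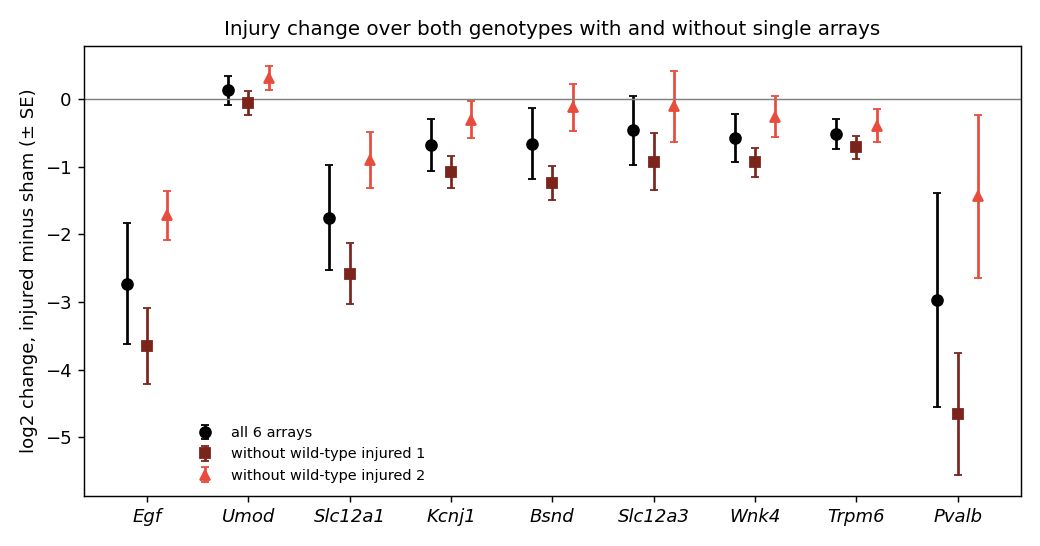
Log2 injury change over both genotypes from limma's additive fit (y axis; bars are ± SE) for the 9 genes (x axis) with all 6 arrays (3 injured, 3 sham), without wild-type injured 1 and without wild-type injured 2 (2 injured, 3 sham each). Leaving out wild-type injured 1 moves every gene down and leaving out wild-type injured 2 moves every gene up; Egf stays below -1.7 in each fit.

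Markers of some other cell types moved with the same arrays, and their part in the changes of the 9 genes was not tested. The 6 injured-tubule markers were Krt20, Lcn2, Havcr1 (kidney injury molecule 1), Sox9, Clu and Vcam1. All 6 were higher over both genotypes, where 56.8% of all genes were lower. Their median was above the sham mean by 2.11 on wild-type injured 1, 4.0 on wild-type injured 2 and 3.19 on Gpr97-deficient injured. Not every marker had that order. Vcam1 was at 2.02, 0.15 and 1.11 on the same 3 arrays, with wild-type sham 2 at 0.17. Lcn2 was highest on Gpr97-deficient injured, at 5.51 against 5.38 on wild-type injured 2. The summed signal of the 6 was 110.3 to 260.4 times the 75th percentile on injured arrays and 23.2 to 29.3 times on sham arrays. The medians of the 9 thick limb and distal genes had the opposite order to the medians of the 6. They were -0.04, -1.39 and -0.64 against the sham mean on the same 3 arrays. Of the 10 proximal tubule markers 9 were lower, with medians of -0.73, -1.45 and -1.09 on the same 3 arrays. Their summed signal was 358.4 to 525.5 times the 75th percentile on injured arrays, against 731.0 to 1043 times on sham arrays. With wild-type injured 1 left out, 8 of the 10 were lower, with a median injury change of -1.27. The proximal tubule markers Acsm3 and Slc7a13 were at -2.02 and -3.28 on wild-type injured 1 and positive on every other array. Markers of collecting duct principal cells (7 genes, medians 0.17, -0.88 and 0.07) and of intercalated cells (5 genes, medians 0.23, -1.15 and -0.32) were also lowest on wild-type injured 2. Their summed signals were 22.8 to 58.5 and 15.6 to 38.3 times the 75th percentile on injured arrays, against 45.9 to 54.4 and 28.9 to 50.4 times on sham arrays. The 4 neutrophil markers had medians of 2.20, 0.78 and 1.81 on the same 3 injured arrays, and summed signals of 11.8 to 29.3 times on injured arrays, against 2.32 to 56.5 times on sham arrays. The 3 red blood cell markers tested, of 5, had medians of 2.08, -2.58 and 0.99 and summed signals of 5.36 to 121.9 times on injured arrays, against 7.69 to 253.4 times on sham arrays. Red blood cell markers were thus, like the 9 genes, highest on wild-type injured 1 and lowest on wild-type injured 2 among the injured arrays. The 5 macrophage markers had medians of -0.038, -1.02 and 0.0016 and summed signals of 9.77 to 21.8 times on injured arrays, against 12.4 to 31.3 times on sham arrays. The same medians were 0.09, 0.18 and 0.01 for podocyte markers and -0.31, -0.30 and 0.23 for endothelial markers. They were 1.47, 1.73 and 2.57 for adipocyte markers and 0.37, -0.44 and -0.08 for skeletal muscle markers. For adipocytes only 2 of 4 markers were tested, Cidec with an injury change of 3.43 (SE 0.56) and Fabp4 with 0.41 (SE 0.31). Of these lists only that of skeletal muscle was lowest on wild-type injured 2.

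**Figure D4:**
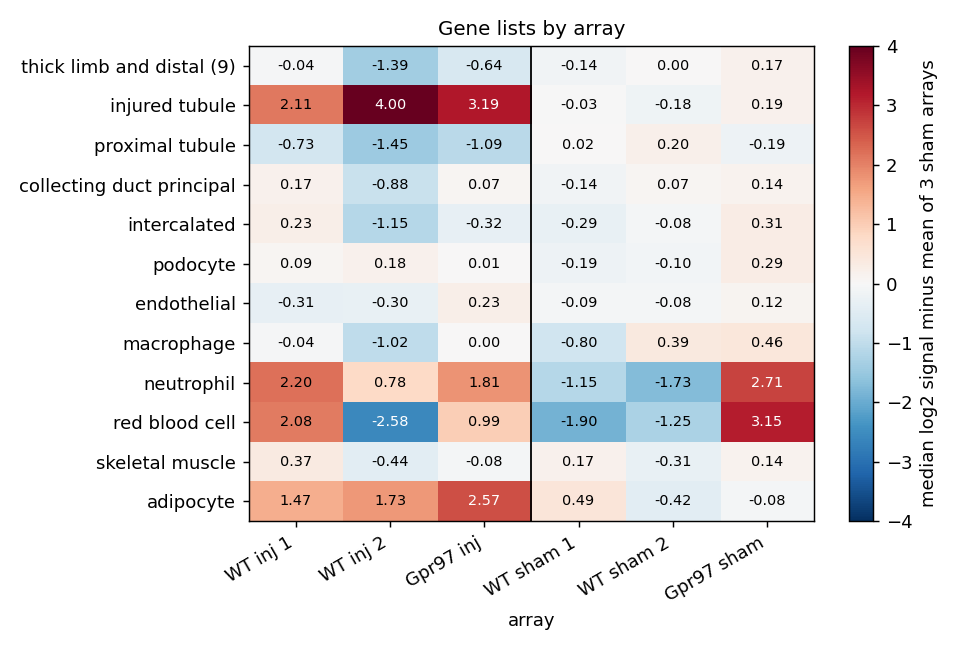
Median over the tested genes of each list of log2 signal minus that gene's mean on the 3 sham arrays (colour and number in each cell), by array (x axis, injured left of the line; WT, wild type; Gpr97, Gpr97-deficient) and list (y axis). The injured-tubule list is at 4.0 and the 9 thick limb and distal genes are at -1.39 on wild-type injured 2, against 2.11 and -0.04 on wild-type injured 1.

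Between genotypes, over both surgeries, the 9 genes were higher in Gpr97 deficiency in 9 of 9, against 48.3% of all genes, but by little: the median was 0.18 (all genes -0.01), the largest value was 0.95 (SE 1.68) for Pvalb, and no adjusted p was below 0.994 in limma's fit. Bsnd, counted as higher, was at 0.0007. The adjusted threshold was passed by 0% of genes. An unadjusted p under 0.05 was found for 641 genes and for 0 of the 9. With slide as a block all 9 turned lower, with a median of -0.20 (all genes -0.02). Without wild-type injured 2, 8 of the 9 were lower, with a median of -0.10 (all genes -0.02). Without wild-type injured 1 the median was 0.48 (all genes -0.01). The shares of all genes lower in these fits were not counted, and both Gpr97-deficient arrays are on slide 2. The direction of the genotype values thus rests on the fit and on which wild-type injured array is kept. On the sham arrays alone the Gpr97-deficient array was above both wild-type arrays for Umod, Slc12a1, Kcnj1, Bsnd, Slc12a3, Wnk4, Trpm6 and Pvalb, and between them for Egf. The share of all genes with that order was not counted, so whether it is particular to the 9 cannot be said. The medians of 4 neutrophil and of 3 red blood cell markers were also highest on that sham array, at 2.71 and 3.15 above the sham mean, and their part in the difference was not tested. The injury change in Gpr97 deficiency minus that in wild type had a median of -0.25 (all genes -0.01) and was lower in 7 of 9, against 50.9% of all genes. It ranged up to 0.44 (SE 2.09) for Egf and down to -0.88 (SE 3.69) for Pvalb. Among 19610 genes 0% passed, with 292 at an unadjusted p under 0.05 and 0 of the 9 among these, and the SEs exceed the values. That median was 0.55 without wild-type injured 1 and -1.22 without wild-type injured 2, so its direction rests on which wild-type injured array is kept.

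Other genes of the same segments were read from lists that, like the 9, were chosen with earlier results of these data known. Their counts stand beside those of all genes: with all arrays 56.8% of genes were lower, and 6.72% were lower with an unadjusted p below 0.05. In the fit that leaves out wild-type injured 1 these shares were 55.2% and 10.6%. Of 15 other thick limb genes 13 were lower in injured kidneys, with a median of -0.67 (all genes -0.06), and 2 had an unadjusted p under 0.05. These were Irx1, a homeobox transcription factor, at -0.86 (SE 0.26, limma adjusted p = 0.344), and Tmem207, a transmembrane protein, at -2.50 (SE 0.80, limma adjusted p = 0.354). Tmem207 had -1.16, -3.92 and -2.07 on wild-type injured 1, wild-type injured 2 and Gpr97-deficient injured, against 0.63 and -0.67 on the wild-type sham arrays and 0.38 on the Gpr97-deficient sham array, with no overlap. Cldn10, the claudin of the paracellular sodium path, was at -0.80 (SE 0.34), and Ptger3, a prostaglandin E2 receptor, at -0.91 (SE 0.40). Without wild-type injured 1, 14 of 15 were lower (median -1.06) and 8 of them reached an unadjusted p under 0.05, as did 1 higher gene.

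Of 12 other distal convoluted and connecting tubule genes 11 were lower (median -0.34), 2 of them at an unadjusted p under 0.05. Calb1, the calcium-binding protein calbindin of the connecting tubule, had 4.67, 3.75 and 4.82 on wild-type injured 1, wild-type injured 2 and Gpr97-deficient injured, against 4.88 and 5.59 on the wild-type sham arrays and 6.23 on the Gpr97-deficient sham array. Its groups did not overlap, and it was lower by 1.13, 0.93 and 1.41 in the slide 1, slide 2 and Gpr97-deficient pairs (change -1.16, SE 0.34, limma adjusted p = 0.332). Slc8a1, the basolateral sodium-calcium exchanger, was also lower in all 3 pairs, at -1.06 (SE 0.31, limma adjusted p = 0.332). The remaining genes named from this list were Tmem52b at -0.66 (SE 0.32) and Fxyd2, the gamma subunit of the sodium pump, at -0.42 (SE 0.27). Without wild-type injured 1, 11 of 12 were lower (median -0.63) and 8 had an unadjusted p under 0.05. The 8 genes of the sodium pump and its basolateral partners were all lower, with a median of -0.33 and none at an unadjusted p under 0.05: Slc4a4 was at -0.42 (SE 0.18), Atp1b1 at -0.33 (SE 0.20) and Fxyd2 as given. Without wild-type injured 1 all 8 were again lower, with a median of -0.51, and 5 had an unadjusted p under 0.05.

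In the WNK cascade, which sets the phosphorylation of both cotransporters, 6 of 10 tested genes were lower (median -0.20) and 0 had an unadjusted p under 0.05. Cul3, the scaffold of the ubiquitin ligase that marks WNK kinases for degradation, was at -0.39 (SE 0.18), Wnk1 at -0.53 (SE 0.26), Cab39l at -0.47 (SE 0.25) and Wnk2 at -0.39 (SE 0.22). In the fit that leaves out wild-type injured 1, 7 of 10 were lower, the median was -0.27, and 3 were lower at an unadjusted p under 0.05. Of the 8 magnesium genes 7 were lower (median -0.21). The exception was Slc41a1, a magnesium transporter, which was higher by 0.64 (SE 0.16, limma unadjusted p = 0.0109, adjusted p = 0.305) and had -0.89, -0.63 and -0.93 on wild-type injured 1, wild-type injured 2 and Gpr97-deficient injured, against -1.51 and -1.40 on the wild-type sham arrays and -1.46 on the Gpr97-deficient sham array. Trpm7, the channel kinase related to TRPM6, was at -0.68 (SE 0.18, limma unadjusted p = 0.0133, adjusted p = 0.323), also with no overlap. Cnnm2 and Cnnm1, of the cyclin M family, were at -0.36 (SE 0.24) and -0.43 (SE 0.32). Without wild-type injured 1, 7 of the 8 were lower, the median was -0.49, and at an unadjusted p under 0.05 there were 2 lower and 1 higher.

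Among the ligands and receptors of the EGF family 7 of 11 tested genes were lower (median -0.11). Nrg1, the ligand neuregulin 1, was the 1 gene with an unadjusted p under 0.05, in the opposite direction to Egf: it had -2.04, 0.04 and -1.19 on wild-type injured 1, wild-type injured 2 and Gpr97-deficient injured, against -2.66 and -3.25 on the wild-type sham arrays and -3.26 on the Gpr97-deficient sham array. Every injured array was above every sham array, and the change was 1.99 (SE 0.58, limma adjusted p = 0.332). Nrg4, another neuregulin, was at -1.27 (SE 0.55), the receptor gene Erbb3 at -0.41 (SE 0.17), and Areg, which encodes amphiregulin and was well above background on 2 of 6 arrays, at 1.73 (SE 0.92). When wild-type injured 1 was left out, 6 of 11 were lower, the median was -0.09, and at an unadjusted p under 0.05 there were 0 lower and 2 higher. Across the 6 pathway lists 0 genes passed the adjusted threshold. Not among the genes tested were Atp2b4, Wnk3 and Ereg.

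Genes with the array pattern most like the mean of the 9 were sought among 3093 genes well above background on all 6 arrays with an SD of at least 0.5, of which 2424 had a gene name that was neither predicted nor an accession. Over 6 arrays, the highest Pearson r belonged to Spata2l, Hhatl, Dnajc28, Glul (glutamine synthetase), Klhl3 (the adaptor that brings WNK kinases to Cul3), Arhgap4, Bmp7, Dmac2, Mccc2 and Grb7, with r between 0.990 and 0.997. Klhl3 had 0.51, -1.89 and -0.46 on wild-type injured 1, wild-type injured 2 and Gpr97-deficient injured, against 0.19 and 0.47 on the wild-type sham arrays and 0.70 on the Gpr97-deficient sham array, low on the same 2 injured arrays as Slc12a1. Net1, Vcl, Gnl3, Pgd and Fgd3 ran most opposite, with r between -0.997 and -0.991. With 6 arrays and so many candidates, such values describe these arrays only.

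Promoter sequence was available for 8 of the 9 genes (Bsnd was not in the table), as the 250 bases before each annotated start in RefSeq on GRCm38.p6, with 2 starts each for Egf and Pvalb. Because Umod and Egf differed most among the genes of the limb, their promoters are shown, 5′ to 3′ on the gene's strand, with matches to 3 motifs in capitals. That of Slc12a3, a gene of the distal convoluted tubule, is added. Only the Umod and Slc12a3 promoters had a match, and those not shown had none. The motifs were the HNF1 half-site GTTAAT, the nuclear receptor half-site AGGTCA and the TATA box TATAAA, each searched on both strands.
Egf, upstream start (chr3:129755323-129755572, minus strand): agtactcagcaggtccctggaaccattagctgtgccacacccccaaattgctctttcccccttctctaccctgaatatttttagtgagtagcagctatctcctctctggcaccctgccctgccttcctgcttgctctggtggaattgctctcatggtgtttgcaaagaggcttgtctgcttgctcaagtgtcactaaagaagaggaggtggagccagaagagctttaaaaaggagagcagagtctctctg
Umod (chr7:119479263-119479512, minus strand): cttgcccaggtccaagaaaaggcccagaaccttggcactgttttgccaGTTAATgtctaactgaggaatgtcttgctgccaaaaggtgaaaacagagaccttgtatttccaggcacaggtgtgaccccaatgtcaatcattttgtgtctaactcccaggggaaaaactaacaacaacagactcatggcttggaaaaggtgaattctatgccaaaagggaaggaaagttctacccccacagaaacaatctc
Slc12a3 (chr8:94328958-94329207, plus strand): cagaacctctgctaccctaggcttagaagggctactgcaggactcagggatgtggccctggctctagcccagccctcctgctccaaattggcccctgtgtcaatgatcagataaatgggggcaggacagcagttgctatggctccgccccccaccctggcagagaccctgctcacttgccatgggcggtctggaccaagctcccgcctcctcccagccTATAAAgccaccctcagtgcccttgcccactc
GTTAAT was in 1 of the 10 promoters, that of Umod, against 6.43% of 32851 promoters. TATAAA was in 1 of the 10, that of Slc12a3, against 12.4% of all promoters. AGGTCA was in 0 of the 10, against 14% of all promoters. These are matches of letters in one window and say nothing of whether a factor binds there.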

How the data were processed

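Kidney RNA of 6 mouse samples was labelled with Cy3 and hybridised to Agilent arrays. The deposited scanner files hold intensity values per spot, read per the file headers with Feature Extraction 10.7.1.1 (slide 1) and 10.7.3.1 (slide 2), with probe positions in mm9. Columns for saturation, outliers and signal well above background hold flags, which are other than intensity, as deposited. The authors' deposited series values followed each array's scanner signal in rank and have medians of 6.07 to 6.09. These deposited values were taken as log2, of unknown normalization. Limma, with no version, is the tool in the submitters' processing notes.

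The processed signal was set to log2 minus each array's 75th percentile, without control spots and spots marked as outliers, with a mean over repeated spots. The brightest probe by mean stood for its gene. Of the genes, 19611 were tested, those well above background on 2 or more of 6 arrays (9 of them lack a value on some array). Probes other than those of the 9 genes were named through RefSeq accessions (27668 of 41174), symbols or synonyms (6060) or the file's own name (7446). Linear models were fitted with limma (version 3.58.1; R 4.3.3; package data.table, 1.17.8), two-sided, with Benjamini-Hochberg adjustment over all genes: an additive model of surgery and genotype (3 residual degrees of freedom) for injury and for genotype, and a model of 4 group means (2 residual degrees of freedom) for injury within a genotype and for the difference between genotypes, where the lone Gpr97-deficient array of each group was taken to vary as wild-type arrays do. The fit was tested on simulated data. For a spot not well above background, the fold sets the brighter array against the higher of the spot's own signal and the lowest signal well above background on that array. That level is not a detection limit. For the dim Slc12a1 probe it was the spot's own signal.

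The 9 genes, the gene lists and the tests were chosen with earlier results of these data known. The text names all 9 genes, up to 4 genes per pathway list with the largest moderated t for injury over both genotypes, and the 10 most like and 5 most opposite genes. Some genes that this rule takes are left out of the text. Alternatives were normexp (offset 50), quantile normalization, the deposited values, slide as a block, other filters, the mean of probes, a trended robust prior, leaving out each array and within-slide differences. The number of arrays limits the precision.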

Additional observations from a re-analysis of the deposited data

How the results depend on the processing

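No setting brought any of the 9 genes past the adjusted threshold, so no call on them was lost. The number of all genes past it for injury over both genotypes was 1 with quantile normalization, 1 with the deposited values, 1 with slide as a block and 3 with a trended robust prior, and for genotype 1 with the trended robust prior, against 0 in the fits reported. The median injury change of the 9 genes over both genotypes ranged from -1.07 to -0.30 when single arrays were left out and was -1.47 within the wild-type pair of slide 1, -0.066 within that of slide 2 and -0.82 within the Gpr97-deficient pair. In wild type it ranged from -1.31 to 0.13 when single arrays were left out and was -1.47 within the pair of slide 1 and -0.066 within that of slide 2. The difference in injury change between genotypes ranged from -1.22 to 0.55 without single arrays. Normexp moved the median injury change of all genes to 0.19.

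Signs turned as follows, and the cause was not tested. With normexp, injury over both genotypes gave -0.077 for Umod, 0.14 for Bsnd and 0.26 for Trpm6, and injury in wild type gave -0.18 for Umod, 0.48 for Bsnd, 0.63 for Trpm6 and 0.0050 for Pvalb. With normexp the genotype values were -0.54 for Bsnd, -0.56 for Trpm6 and -0.32 for Pvalb, and the differences in injury change were 0.30 for Umod and 0.19 for Kcnj1. The deposited values gave -0.36 for Umod by genotype, and differences in injury change of 0.13 for Umod and 0.066 for Kcnj1. Quantile normalization gave -0.029 for Umod by genotype and a difference in injury change of 0.26. With slide as a block the genotype values were -0.65 for Egf, -0.046 for Umod, -0.20 for Slc12a1, -0.072 for Kcnj1, -0.43 for Bsnd, -0.18 for Slc12a3, -0.23 for Wnk4, -0.15 for Trpm6 and -1.03 for Pvalb. Within the wild-type pair of slide 1 Umod was at -0.16, and within that of slide 2 Kcnj1 was at 0.21 and Bsnd at 0.52.

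Leaving out single arrays gave these ranges where a sign turned. For injury over both genotypes Umod ranged from -0.052 to 0.31. For injury in wild type Umod ranged from -0.18 to 0.45, Kcnj1 from -1.31 to 0.041, Bsnd from -1.55 to 0.40, Slc12a3 from -0.99 to 0.44, Wnk4 from -1.06 to 0.13 and Pvalb from -5.49 to 0.15. By genotype Egf ranged from -0.50 to 0.95, Umod from -0.010 to 0.26, Slc12a1 from -0.22 to 1.04, Kcnj1 from -0.10 to 0.48, Bsnd from -0.40 to 0.44, Wnk4 from -0.067 to 0.44, Trpm6 from -0.19 to 0.25 and Pvalb from -0.19 to 2.22. For the difference in injury change Egf ranged from -1.26 to 2.13, Umod from -0.33 to 0.30, Slc12a1 from -1.38 to 1.56, Kcnj1 from -0.80 to 0.55, Bsnd from -1.22 to 0.73, Slc12a3 from -1.28 to 0.15, Wnk4 from -0.90 to 0.28 and Pvalb from -3.70 to 1.93. Egf, Slc12a1 and Trpm6 kept a lower value in injury in wild type in every fit without 1 array.

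The limits are few arrays, 1 wild-type injured array that goes against its label, and dim signals of Bsnd, Trpm6 and Pvalb, whose values depend on the background correction. The labels give no replicate numbers that the groups share, so the pairings tried were slide as a block and the differences within a slide.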
